A study of Homo sapiens with 9 samples.

Results

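The genes described here are the enzymes that write and erase methyl groups on histone lysines, together with the proteins that read methylated H3K9. They were taken by symbol from a list of 50 genes, and all 50 were found once each among the 32906 genes of the deposited lists. The cells were labelled as Huh7, an established human line, and as hepatocellular carcinoma cells, and all 9 libraries come from transfected cells with that label. They were transfected with a scrambled control siRNA (Scramble, genotype labelled control), with a first siRNA against KDM4C (Si-KDM4C#1) or with a second one (Si-KDM4C#2), and RNA was taken after 48 hours. Each group had 3 libraries. The study says of its experiments in general that they were done independently several times, but the labels do not tie these libraries to separate cultures, so the p-values measure the spread between libraries, which may be technical. Levels are FPKM (fragments per kilobase of exon, scaled to the fragments of the library), and the depth recovered from the values ran from 14597502 to 18058555 fragments per library, at which 3 fragments on 1 kilobase of exon equal 0.166 to 0.206 FPKM.

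The label of the cells was not borne out by hepatocyte transcripts. Of 12 hepatocyte mRNAs looked up, 9 were listed, and all 9 stayed under 1 FPKM in every library, with 0.248 FPKM as the highest value. Their summed level ran from 0.156 to 0.246 FPKM in Scramble, from 0.0347 to 0.0959 FPKM under Si-KDM4C#1 and from 0.178 to 0.433 FPKM  under Si-KDM4C#2. The 3 epithelial keratins looked up summed to 330 to 353 FPKM in Scramble, 290 to 309 FPKM with Si-KDM4C#1 and 240 to 254 FPKM with Si-KDM4C#2, but not as one. KRT8 was at 195 to 205 FPKM, 135 to 142 FPKM and 145 to 152 FPKM in that order, KRT18 was at 131 to 148 FPKM, 155 to 167 FPKM and 95.5 to 102 FPKM, and KRT19 stayed under 1 FPKM. The 3 fibroblast collagens summed to 40.5 to 43.4 FPKM, 51.8 to 55.2 FPKM and 71.9 to 74.2 FPKM, mostly through COL3A1 (26.2 to 29.01, 36.7 to 39.8 and 54.2 to 56.3 FPKM). COL1A1 overlapped between Scramble (14.3 to 15.9 FPKM) and Si-KDM4C#1 (15.1 to 15.9 FPKM), COL1A2 was at most 0.00578 FPKM, and the part of these shifts in the results on chromatin genes was not tested. The 3 leukocyte mRNAs were under 1 FPKM in every library.

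Methyl groups on the tails of histones H3 and H4 are placed by methyltransferases, most of which carry a SET domain, and are taken off by demethylases of the JmjC type, which need iron and 2-oxoglutarate, or of the flavin-dependent LSD type. KDM4C belongs to the KDM4 (JMJD2) family, which removes the tri- and dimethyl marks of H3K9 and H3K36. Methylated H3K9 is a mark of heterochromatin and is bound by the HP1 proteins, whereas H3K27 methylation is the mark of Polycomb repression, and methylation of H3K4, H3K36 and H3K79 is found on active genes.

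Paralogs of KDM4C are close relatives in sequence, and how far their letters differ is described here. Between the aligned coding sequences of GENCODE release 29, identity with KDM4C was 67.7% for KDM4A, 65.5% for KDM4B and 64.9% for KDM4D. No run of 19 bases, the length of the paired part of an siRNA, was shared with KDM4C by any of these 3 (0 of 3153 runs), and the longest run shared with each of them was 17 bases. Only identical runs in the longest coding sequence of each gene were compared. These counts therefore do not show which paralogs an siRNA can act on, and that was not tested. The 27 coding bases most alike across the 4 genes lie in the JmjC domain and are given on the plus strand of GRCh38, with capitals at each base that differs from KDM4C. They are shown as the place where the family is hardest to tell apart, and the search did not use the siRNA sequences.
KDM4C (exon 5, chr9:6849612-6849638): ggcatgtggaagaccacgtttgcatgg
KDM4A (exon 5, chr1:43662999-43663025): ggcatgtggaagacATcCtttgcTtgg
KDM4B (exon 5, chr19:5047581-5047607): ggcatgtggaagaccacCttCgcCtgg
KDM4D (exon 3, chr11:94997919-94997945): ggcatgtggaaAaccacgtttgcTtgg
Over the 27 bases KDM4A differed from KDM4C at 4 positions, KDM4B at 3 and KDM4D at 2.

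KDM4C mRNA was low with both siRNAs, and KDM4B mRNA was low with Si-KDM4C#2 as well. KDM4C measured 4.88, 4.63 and 4.57 FPKM in Scramble, 1.18, 1.10 and 1.13 FPKM under Si-KDM4C#1 and 0.256, 0.349 and 0.256 FPKM  under Si-KDM4C#2. The 3 groups did not overlap, and the means of the siRNA groups were 24.3% and 6.11% of the Scramble mean. In fragments, the libraries held 761, 760 and 808 from KDM4C in Scramble, 220, 166 and 188 under Si-KDM4C#1 and 41, 56 and 45 under Si-KDM4C#2. On the log2(FPKM + 1) scale used for all fold changes here, which understates the change of low genes, KDM4C fell by 1.41 (SE 0.0765, limma adjusted p = 2.65e-07) with Si-KDM4C#1 and by 2.15 (SE 0.0765, limma adjusted p = 5.45e-08) with Si-KDM4C#2. With a pseudocount of 0.1 in place of 1, the second of these values was -3.64, and from the recovered fragments (limma voom) it was -4.09. The direct comparison put KDM4C 0.73 lower on the log2 scale with Si-KDM4C#2 than with Si-KDM4C#1 (log2 fold change -0.73, SE 0.0765, limma adjusted p = 2.40e-05).

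KDM4B, a demethylase of the same marks, was expressed at 6.67, 6.06 and 6.10 FPKM in Scramble and at 6.42, 5.73 and 5.16 FPKM with Si-KDM4C#1. With Si-KDM4C#2 it measured 1.10, 1.17 and 1.26 FPKM, under all libraries of the other groups. The first siRNA left overlapping values (log2 fold change -0.11, SE 0.0760, limma adjusted p = 0.240), a call that a lowess adjustment of every library for GC content changed (log2 fold change -0.33, limma adjusted p = 0.00263). With Si-KDM4C#2 the mean was 18.7% of Scramble (log2 fold change -1.74, SE 0.0760, limma adjusted p = 1.43e-07), and the difference between the siRNAs was -1.63 (SE 0.0760, limma adjusted p = 1.45e-07). The fragments of KDM4B numbered 1482, 1419 and 1538 in Scramble, 1707, 1231 and 1220 under Si-KDM4C#1 and 250, 268 and 316 under Si-KDM4C#2. Of the 3 family members tested, KDM4C and KDM4B fell in the Si-KDM4C#2 libraries, and KDM4C fell in the Si-KDM4C#1 libraries.

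KDM4A, the third broadly expressed member, measured 4.94, 4.44 and 4.17 FPKM in Scramble, 5.05, 5.03 and 4.63 FPKM under Si-KDM4C#1 and 3.98, 4.27 and 3.89 FPKM  under Si-KDM4C#2. Both siRNA groups overlapped Scramble and neither difference was called (log2 fold changes 0.10 and -0.13, limma adjusted p = 0.207 and 0.122), although the siRNA groups differed from each other (-0.23, SE 0.0655, limma adjusted p = 0.0130). Both outcomes depended on the scaling. KDM4A was called lower with Si-KDM4C#2 after the GC adjustment (-0.17, limma adjusted p = 0.0324), by quantile normalization (-0.17, limma adjusted p = 0.0255) and by limma voom (-0.21, adjusted p = 0.0445). It was called higher with Si-KDM4C#1 by quantile normalization (0.18, limma adjusted p = 0.0178) and by limma voom (0.20, adjusted p = 0.0395). Of the 31-base runs of KDM4A, 39.3% also occur in AL451062.3, an annotated gene with which its reads may be shared. KDM4D, a short family member that acts on H3K9 alone, was under the 1 FPKM filter, at 0.489, 0.465 and 0.314 FPKM in Scramble, 0.465, 0.276 and 0.251 FPKM under Si-KDM4C#1 and 0.715, 0.647 and 0.728 FPKM  under Si-KDM4C#2. All Si-KDM4C#2 libraries were above all others, on 33, 30 and 37 fragments against 22, 22 and 16 in Scramble. In a fit over all listed genes this gave a log2 fold change of 0.26 (SE 0.0926, limma adjusted p = 0.0843) against Scramble and 0.35 (SE 0.0926, limma adjusted p = 0.0221) against Si-KDM4C#1. The second call was lost without Si-KDM4C#1 replicate 2 or 3 or Si-KDM4C#2 replicate 1 or 3 (limma adjusted p up to 0.0705), and the first was gained by quantile normalization (0.30, limma adjusted p = 0.0339).

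**Figure D1:**
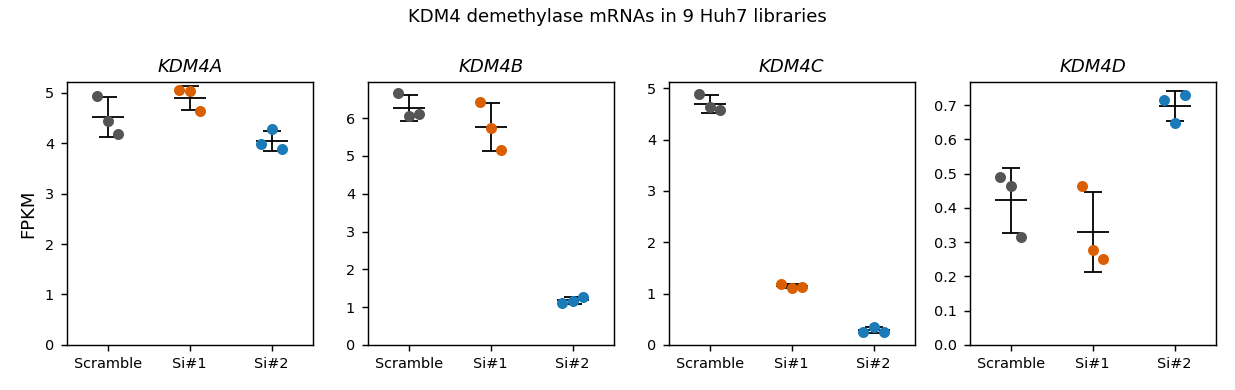
FPKM of KDM4A, KDM4B, KDM4C and KDM4D in each library (points) of Scramble, Si-KDM4C#1 (Si#1) and Si-KDM4C#2 (Si#2), with the mean and SD of 3 libraries. KDM4C drops in both siRNA groups, KDM4B drops from about 6 to 1.10 to 1.26 FPKM in the Si-KDM4C#2 libraries only, and KDM4A stays between 3.89 and 5.05 FPKM in all 9.

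Across the whole list, 48 of the 50 genes reached a group mean of 1 FPKM somewhere and were tested; KDM4D and KDM8 did not. All 48 also passed in Scramble, so none was tested because an siRNA raised it. With Si-KDM4C#1, 17 of the 48 were higher and 17 lower at an adjusted p under 0.05 in limma, shares close to those of all 14363 genes tested, of which 31.7% were higher and 33.9% lower. With Si-KDM4C#2, 22 were higher and 9 lower, against 34.4% and 25.0% of all genes. The median log2 fold change of the 48 genes was -0.02 under Si-KDM4C#1 and 0.17  under Si-KDM4C#2, and over all genes tested it was -0.03 and 0.06. Between the siRNAs, 28 of the 48 were higher with Si-KDM4C#2 and 10 lower (35.9% and 26.5% of all genes), with a median of 0.24 against 0.08 for all genes. These counts and medians depend on the scaling. With quantile normalization, 22 of the 48 were higher and 10 lower with Si-KDM4C#2, against 4401 and 4179 of the 14363 genes. The direct comparison then gave 26 higher and 12 lower, against 4306 and 4390. Medians over all genes were 0.0071 and -0.0017 in these 2 comparisons. As both siRNA groups are set against the same Scramble libraries, their values are given side by side for each gene.

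On the log2(FPKM + 1) scale, a fold change over 2 was reached by few of the 48 genes. With Si-KDM4C#1 these were ATRX, KDM4C, SETD2 and SUZ12, all 4 lower (4.83% of all genes), and none was higher (4.04% of all genes), while 17 of the 48 were higher at the adjusted p alone. With Si-KDM4C#2 KDM4C and KDM4B were lower (2.30% of all genes) and DOT1L was higher (2.60%). Directly between the siRNAs, ATRX, CBX3, SUZ12, KDM5A and SETD2 were more than 2-fold higher with Si-KDM4C#2 (4.41%) and KDM4B was lower (2.49%). A fold change of 1.5 was passed by 3 higher and 8 lower genes with Si-KDM4C#1 (13.0% and 15.0% of all genes) and by 7 higher and 4 lower genes with Si-KDM4C#2 (11.6% and 8.50%). Between the siRNAs 8 genes were higher and 3 lower by that measure (14.6% and 8.81% of all genes). Which genes pass depends on the scale. Ratios of the FPKM means also passed 2-fold against Scramble for KDM5A and CBX3 (Si-KDM4C#1) and for KDM7A, KDM2B and SUV39H2 (Si-KDM4C#2). Between the siRNAs these ratios did so for KDM1B, KDM4C and KDM7A as well.

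**Figure D2:**
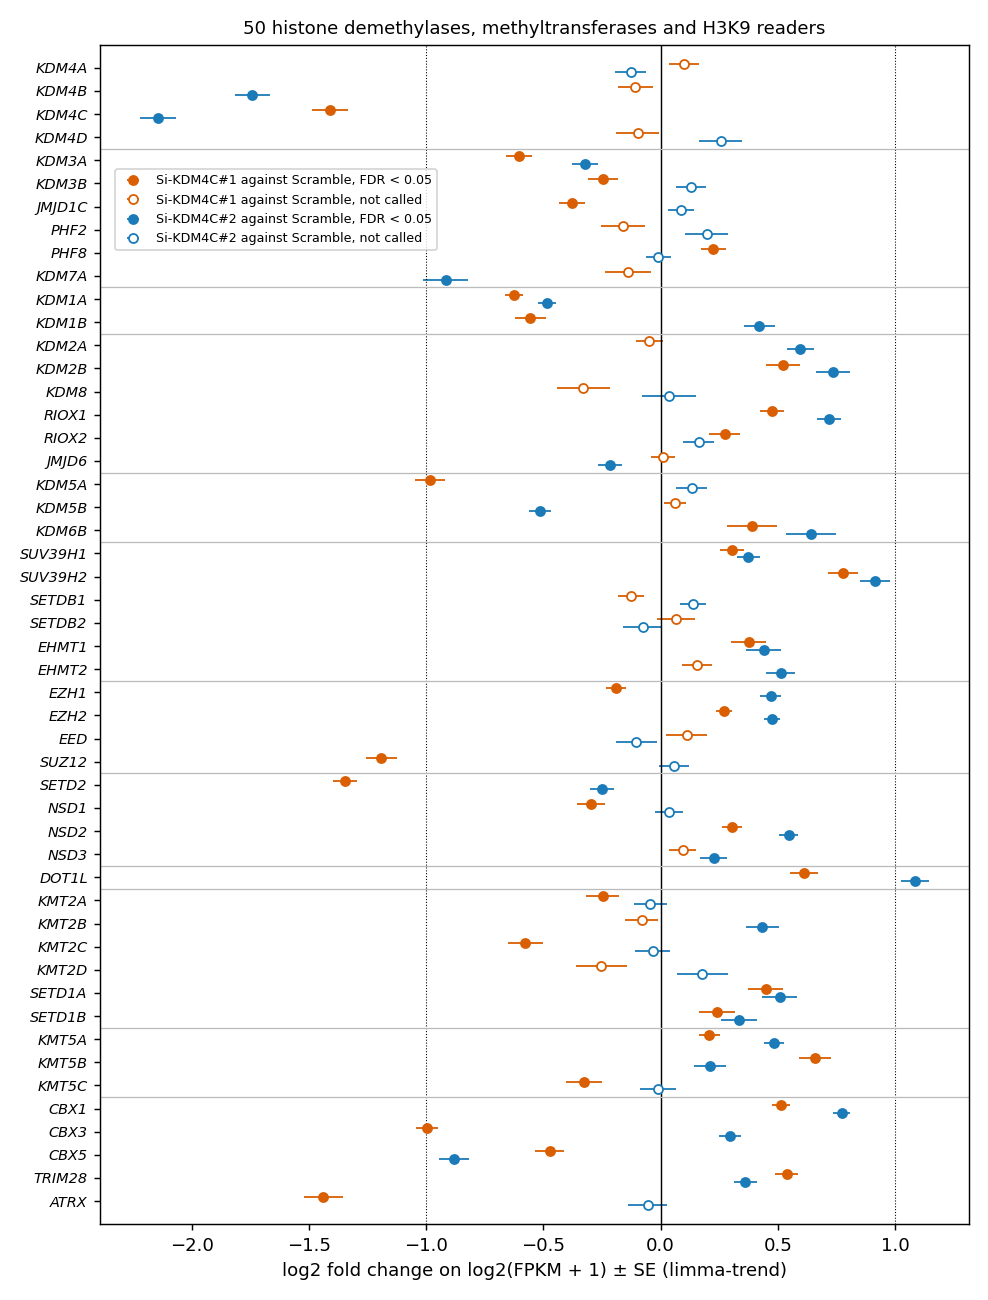
Log2 fold change of the 50 genes against Scramble, on log2(FPKM + 1) with SE, grouped by role, for Si-KDM4C#1 (orange) and Si-KDM4C#2 (blue); filled points have an adjusted p under 0.05 and dotted lines mark a 2-fold change. The points furthest left are KDM4C with both siRNAs, KDM4B with Si-KDM4C#2, and ATRX, SETD2 and SUZ12 with Si-KDM4C#1, and the point furthest right is DOT1L with Si-KDM4C#2.

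Among the 6 JmjC demethylases of mono- and dimethyl H3K9, 3 fell and 1 rose with Si-KDM4C#1, and 2 fell with Si-KDM4C#2, where 33.9% and 25.0% of all genes were lower. KDM3A, an H3K9 demethylase known as a hypoxia-responsive gene, measured 9.10, 9.14 and 9.91 FPKM in Scramble, 6.01, 6.10 and 5.39 FPKM under Si-KDM4C#1 and 7.13, 7.24 and 7.49 FPKM  under Si-KDM4C#2. Both siRNA groups lay wholly under Scramble, with log2 fold changes of -0.60 (SE 0.0555, limma adjusted p = 8.30e-06) and -0.32 (SE 0.0555, limma adjusted p = 0.000741). KDM7A, which removes dimethyl marks from H3K9 and H3K27, had 2.45, 2.53 and 2.20 FPKM in Scramble and 2.14, 2.35 and 1.78 FPKM with Si-KDM4C#1, ranges that overlapped. Its 3 values with Si-KDM4C#2 were 0.684, 0.913 and 0.796 FPKM, 33.3% of the Scramble mean (log2 fold change -0.92, SE 0.0963, limma adjusted p = 3.02e-05). This was the largest fall among these 6 genes, and the difference between the siRNAs was -0.78 (SE 0.0963, limma adjusted p = 7.67e-05). The relatives of KDM3A changed by less. KDM3B had log2 fold changes of -0.25 (limma adjusted p = 0.00705) and 0.13 (limma adjusted p = 0.106), and JMJD1C had -0.38 (limma adjusted p = 0.000204) and 0.09 (limma adjusted p = 0.201), in the order Si-KDM4C#1 and Si-KDM4C#2. Under the GC adjustment JMJD1C lost its call with Si-KDM4C#1 (-0.09, limma adjusted p = 0.127) and gained one with Si-KDM4C#2 (0.20, limma adjusted p = 0.00556). PHF8, which acts on H3K9, H3K27 and H4K20, rose with Si-KDM4C#1 (0.23, SE 0.0537, limma adjusted p = 0.00442), and its relative PHF2 passed with neither siRNA (-0.16 and 0.20, limma adjusted p = 0.154 and 0.0955), though the GC adjustment called it lower with Si-KDM4C#1 (-0.27, limma adjusted p = 0.0168) and a fit of the 6 libraries alone called it higher with Si-KDM4C#2 (0.20, limma adjusted p = 0.0476).

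Both flavin-dependent demethylases changed with both siRNAs, which was common among all genes tested. Of these genes, 15.2% fell under both siRNAs and 19.4% rose under both. A further 5.66% fell under Si-KDM4C#1 but rose under Si-KDM4C#2, and 4.11% did the reverse. KDM1A (LSD1), which takes methyl groups off H3K4 in the CoREST complex, was among the most abundant genes of the list, at 88.8, 93.3 and 94.0 FPKM in Scramble. It measured 61.9, 57.5 and 58.5 FPKM under Si-KDM4C#1 and 64.9, 66.0 and 65.7 FPKM  under Si-KDM4C#2. Both groups were under all Scramble libraries (-0.63, SE 0.0377, limma adjusted p = 4.90e-07, and -0.48, SE 0.0377, limma adjusted p = 4.41e-06). Its paralog KDM1B (LSD2) went in opposite directions: 12.9, 13.0 and 13.9 FPKM in Scramble, 9.65, 8.39 and 8.13 FPKM under Si-KDM4C#1 and 18.9, 16.9 and 18.6 FPKM  under Si-KDM4C#2. The log2 fold changes were -0.56 (SE 0.0668, limma adjusted p = 5.35e-05) and 0.42 (SE 0.0668, limma adjusted p = 0.000458), and the siRNAs differed by 0.98 (SE 0.0668, limma adjusted p = 1.48e-06).

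Of the JmjC demethylases of H3K36 and the related oxygenases grouped with them, 5 were tested. With each siRNA 3 of these rose, where 31.7% and 34.4% of all genes were higher, and the risers include oxygenases. KDM2B, an H3K36 demethylase that also brings Polycomb complexes to CpG islands, was low, at 1.16, 1.01 and 1.06 FPKM in Scramble, and reached 1.98, 2.09 and 1.88 FPKM under Si-KDM4C#1 and 2.46, 2.33 and 2.58 FPKM  under Si-KDM4C#2. Its means were 184% and 228% of Scramble, which the log2(FPKM + 1) scale gave as 0.52 (SE 0.0734, limma adjusted p = 0.000155) and 0.74 (SE 0.0734, limma adjusted p = 2.18e-05). RIOX1, a nucleolar oxygenase, measured 8.21, 8.41 and 7.83 FPKM in Scramble, 12.1, 11.2 and 11.9 FPKM under Si-KDM4C#1 and 14.9, 13.6 and 13.7 FPKM  under Si-KDM4C#2. The groups of RIOX1 did not overlap (0.48, SE 0.0512, limma adjusted p = 2.46e-05, and 0.72, SE 0.0512, limma adjusted p = 2.51e-06), and the GC adjustment lowered the first value to 0.31 (limma adjusted p = 0.000460). KDM2A, the paralog of KDM2B, was at 8.95, 8.06 and 8.21 FPKM in Scramble, 8.55, 8.05 and 7.71 FPKM under Si-KDM4C#1 and 13.8, 12.4 and 13.5 FPKM  under Si-KDM4C#2. It rose with the second siRNA (0.60, SE 0.0583, limma adjusted p = 1.90e-05) and overlapped Scramble with the first (-0.05, SE 0.0583, limma adjusted p = 0.495). RIOX2 rose with Si-KDM4C#1 (0.27, limma adjusted p = 0.00490, and 0.44 after the GC adjustment), and with Si-KDM4C#2 it was called after that adjustment (0.16, limma adjusted p = 0.0602, against 0.21, limma adjusted p = 0.0166). JMJD6, an oxygenase of splicing factors, fell with Si-KDM4C#2 (-0.21, limma adjusted p = 0.00549). KDM8 was under the filter, at 0.549 to 0.935 FPKM in Scramble, 0.219 to 0.424 FPKM under Si-KDM4C#1 and 0.668 to 0.783 FPKM under Si-KDM4C#2, and no call was made against Scramble (limma adjusted p = 0.0659 and 0.877). With Si-KDM4C#1 it was called lower by limma voom and by the GC adjustment without a replicate block (limma adjusted p down to 0.00667).

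Each of the 3 demethylases of H3K4 and H3K27 had a pattern of its own. KDM5A, an H3K4 trimethyl demethylase that binds the retinoblastoma protein, measured 7.77, 8.10 and 7.87 FPKM in Scramble, 3.72, 3.72 and 3.11 FPKM under Si-KDM4C#1 and 9.06, 8.24 and 9.05 FPKM  under Si-KDM4C#2. With the first siRNA it was at 44.4% of Scramble (-0.98, SE 0.0651, limma adjusted p = 9.08e-07), just inside a 2-fold change on this scale, and the difference with the second was not called (0.13, SE 0.0651, limma adjusted p = 0.106, against 0.17 and 0.0328 after the GC adjustment). Its paralog KDM5B did the reverse, at 6.70, 6.89 and 6.98 FPKM in Scramble, 7.46, 7.30 and 6.86 FPKM under Si-KDM4C#1 and 4.37, 4.61 and 4.55 FPKM  under Si-KDM4C#2. KDM5B fell with the second siRNA (-0.51, SE 0.0470, limma adjusted p = 1.26e-05) and overlapped Scramble with the first (0.06, SE 0.0470, limma adjusted p = 0.270), where the GC adjustment called it higher (0.19, limma adjusted p = 0.00284). The differences between the siRNAs were 1.12 for KDM5A (SE 0.0651, limma adjusted p = 5.44e-07) and -0.57 for KDM5B (SE 0.0470, limma adjusted p = 4.67e-06). KDM6B, an H3K27 demethylase that opposes Polycomb, was at 8.76, 7.04 and 6.41 FPKM in Scramble, 10.3, 9.67 and 9.83 FPKM under Si-KDM4C#1 and 12.4, 10.5 and 13.2 FPKM  under Si-KDM4C#2. All siRNA libraries were above all Scramble libraries (0.39, SE 0.106, limma adjusted p = 0.00873, and 0.64, SE 0.106, limma adjusted p = 0.000582). Its transcripts are rich in GC, and under the GC adjustment the first value was 0.14 (limma adjusted p = 0.200) and the second 0.32 (limma adjusted p = 0.0104).

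**Figure D3:**
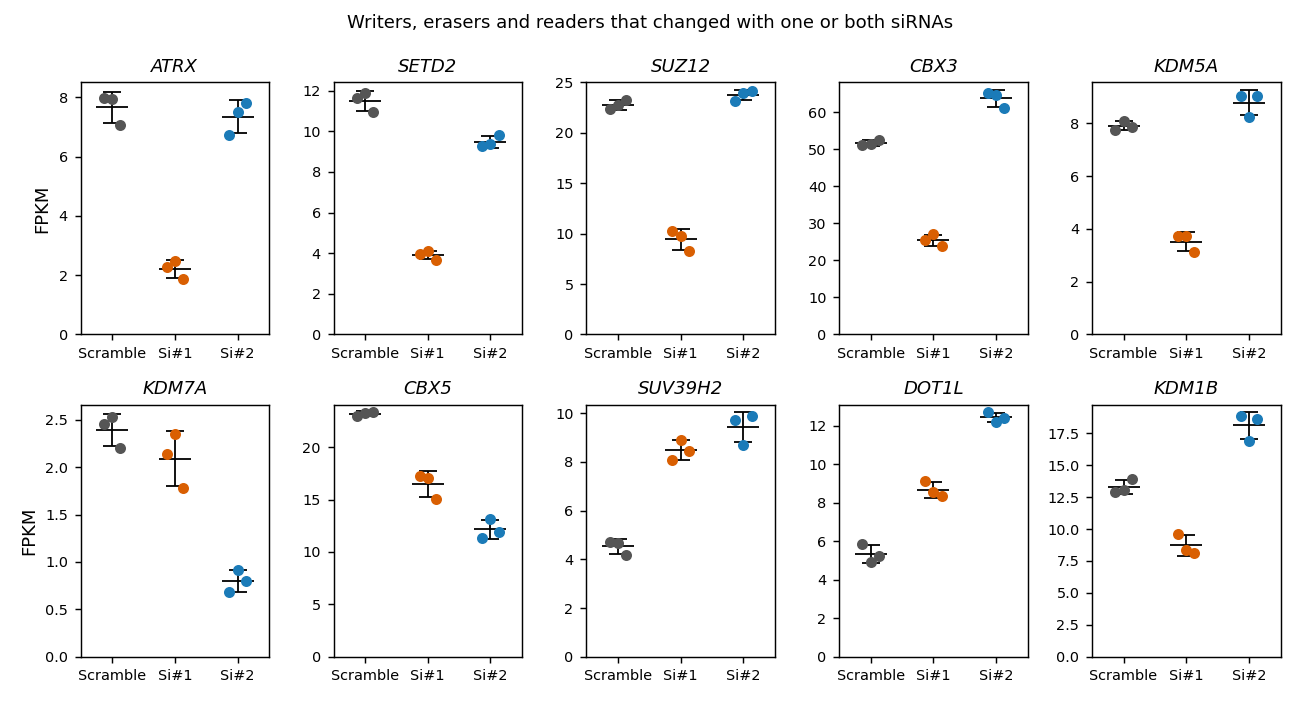
FPKM of 10 genes in each library (points), with the mean and SD of 3 libraries, in Scramble, Si-KDM4C#1 (Si#1) and Si-KDM4C#2 (Si#2). For ATRX, SETD2, SUZ12, CBX3 and KDM5A the Si-KDM4C#1 libraries lie apart below the rest, for KDM7A the Si-KDM4C#2 libraries do, CBX5 is lower and SUV39H2 and DOT1L are higher in both, and KDM1B is low in one and high in the other.

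Of the 6 enzymes that place methyl groups on H3K9, 3 rose under Si-KDM4C#1 and 4 under Si-KDM4C#2, where 31.7% and 34.4% of all genes were higher, and 0 were called lower, where 33.9% and 25.0% of all genes were. SUV39H2, which makes the trimethyl mark of heterochromatin, rose most, from 4.72, 4.67 and 4.19 FPKM in Scramble to 8.09, 8.92 and 8.43 FPKM under Si-KDM4C#1 and 9.70, 8.71 and 9.86 FPKM  under Si-KDM4C#2. These were 187% and 208% of Scramble (0.78, SE 0.0629, limma adjusted p = 3.44e-06, and 0.91, SE 0.0629, limma adjusted p = 2.06e-06), and the siRNA groups overlapped each other (0.14, limma adjusted p = 0.0864). Its paralog SUV39H1 was at 9.30, 9.07 and 9.55 FPKM in Scramble, 11.1, 11.9 and 12.1 FPKM under Si-KDM4C#1 and 11.7, 12.8 and 12.6 FPKM  under Si-KDM4C#2. SUV39H1 rose by less (0.30, limma adjusted p = 0.000401, and 0.37, limma adjusted p = 0.000138), and after the GC adjustment it was no longer called with the first siRNA (0.14, limma adjusted p = 0.0524) and stood at 0.17 with the second (limma adjusted p = 0.0291). EHMT1 (GLP) and EHMT2 (G9a), which form the H3K9 dimethyltransferase, gave 0.38 (limma adjusted p = 0.00145) and 0.15 (limma adjusted p = 0.0524) with Si-KDM4C#1, and 0.44 (limma adjusted p = 0.000672) and 0.51 (limma adjusted p = 8.23e-05) with Si-KDM4C#2. The GC adjustment took EHMT1 to 0.24 and 0.27, and EHMT2 with Si-KDM4C#2 to 0.29, all 3 still called. EHMT2 with Si-KDM4C#1 was called by limma voom (0.25, adjusted p = 0.000533). SETDB1, the methyltransferase that silences retroelements with TRIM28, and its relative SETDB2 passed with neither siRNA (adjusted p from 0.0549 to 0.495 in limma). SETDB2 was called higher with Si-KDM4C#1 under the GC adjustment (0.35, limma adjusted p = 0.00445).

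Of the Polycomb repressive complex 2 (PRC2), which methylates H3K27, the catalytic subunit EZH2 rose with both siRNAs and the scaffold SUZ12 fell with the first. SUZ12 measured 22.3, 22.7 and 23.2 FPKM in Scramble and 10.2, 9.80 and 8.28 FPKM with Si-KDM4C#1, and with Si-KDM4C#2 it was at 23.2, 23.9 and 24.1 FPKM. The first siRNA thus left 41.5% of the Scramble mean (-1.19, SE 0.0654, limma adjusted p = 2.86e-07), and the second showed no call (0.06, SE 0.0654, limma adjusted p = 0.475) except after the GC adjustment (0.18, limma adjusted p = 0.0241). The difference between the siRNAs was 1.25 (SE 0.0654, limma adjusted p = 2.81e-07). Some reads of SUZ12 may be shared with the pseudogene SUZ12P1 and others, since 13.4% of its 31-base runs occur in another annotated gene. EZH2 was at 18.3, 19.3 and 19.01 FPKM in Scramble, 23.0, 23.3 and 22.7 FPKM under Si-KDM4C#1 and 26.5, 26.4 and 27.2 FPKM  under Si-KDM4C#2 (0.27, SE 0.0348, limma adjusted p = 8.27e-05, and 0.48, SE 0.0348, limma adjusted p = 2.91e-06). Its paralog EZH1 was slightly lower with the first siRNA (-0.19, SE 0.0436, limma adjusted p = 0.00338, and 0.0623 by limma voom) and higher with the second (0.47, SE 0.0436, limma adjusted p = 1.38e-05). EED, which binds the finished H3K27 trimethyl mark, was not called (0.11 and -0.10, limma adjusted p = 0.289 and 0.332), though the GC adjustment put it at 0.40 with Si-KDM4C#1 (limma adjusted p = 0.00379).

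SETD2, the enzyme that lays down trimethyl H3K36, fell most among the 4 writers of the H3K36 marks that KDM4 enzymes remove. It measured 11.6, 11.9 and 10.9 FPKM in Scramble, 3.98, 4.10 and 3.67 FPKM under Si-KDM4C#1 and 9.28, 9.39 and 9.83 FPKM  under Si-KDM4C#2. The groups were fully apart, at 34.0% and 82.6% of Scramble (-1.35, SE 0.0517, limma adjusted p = 3.62e-08, and -0.25, SE 0.0517, limma adjusted p = 0.00226), and the siRNAs differed by 1.10 (SE 0.0517, limma adjusted p = 1.59e-07). NSD2, which makes the dimethyl mark, rose with both (0.30, SE 0.0416, limma adjusted p = 0.000131, and 0.55, SE 0.0416, limma adjusted p = 3.84e-06), from 10.8 to 11.3 FPKM in Scramble to 13.2 to 14.4 FPKM and 16.2 to 16.8 FPKM. NSD1 fell with Si-KDM4C#1 only by the call (-0.30, limma adjusted p = 0.00189, against 0.04, limma adjusted p = 0.639), with a difference between the siRNAs of 0.33 (limma adjusted p = 0.00103). NSD3 rose with Si-KDM4C#2 (0.23, limma adjusted p = 0.00763) and gave 0.09 with Si-KDM4C#1 (limma adjusted p = 0.178), a value that was called after the GC adjustment (0.26, limma adjusted p = 0.00189), by quantile normalization (0.16, limma adjusted p = 0.0199) and by limma voom (0.19, adjusted p = 0.00473).

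DOT1L, the methyltransferase of H3K79 and the one methyltransferase here without a SET domain, had the largest rise of the 48 genes with Si-KDM4C#2 on the log2(FPKM + 1) scale, whereas with Si-KDM4C#1 SUV39H2 (0.78) and KMT5B (0.66) rose further. Its values were 5.85, 4.94 and 5.22 FPKM in Scramble, 9.15, 8.56 and 8.34 FPKM under Si-KDM4C#1 and 12.7, 12.2 and 12.4 FPKM  under Si-KDM4C#2. The 3 groups stood in that order without overlap, at 163% and 233% of Scramble (0.61, SE 0.0595, limma adjusted p = 1.21e-05, and 1.09, SE 0.0595, limma adjusted p = 5.16e-07), and the siRNAs differed by 0.47 (SE 0.0595, limma adjusted p = 8.63e-05). DOT1L transcripts are rich in GC too, and the GC adjustment gave 0.35 (limma adjusted p = 4.69e-05) and 0.76 (limma adjusted p = 5.60e-07), both still called and the second no longer over 2-fold and under that of SUV39H2 (1.03).

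The 6 writers of H3K4 methylation split between falls and rises. KMT2C (MLL3), an enhancer methyltransferase, fell with Si-KDM4C#1, from 6.42, 5.96 and 5.62 FPKM in Scramble to 4.05, 3.82 and 3.23 FPKM, and stayed at 5.73, 5.69 and 6.10 FPKM with Si-KDM4C#2. The log2 fold changes were -0.58 (SE 0.0745, limma adjusted p = 8.70e-05) and -0.03 (SE 0.0745, limma adjusted p = 0.722). KMT2A (MLL1) gave -0.25 with Si-KDM4C#1 (limma adjusted p = 0.0117, and 0.0613 after the GC adjustment) and -0.04 with Si-KDM4C#2 (limma adjusted p = 0.615). KMT2B rose with Si-KDM4C#2 (0.43, limma adjusted p = 0.000526), a call that the GC adjustment ended (0.15, limma adjusted p = 0.0664), and the same adjustment called it lower with Si-KDM4C#1 (-0.08, limma adjusted p = 0.337, before, and -0.31, limma adjusted p = 0.00172, after). KMT2D was not called with Si-KDM4C#2 (0.18, limma adjusted p = 0.188). With Si-KDM4C#1 it was at -0.25 (limma adjusted p = 0.0664) and was called lower under 5 of 8 alternatives: quantile normalization, 1 FPKM in every library, the replicate block, and the GC adjustment without and with that block (-0.25 to -0.43, limma adjusted p from 0.00206 to 0.0468). SETD1A, a catalytic subunit of the COMPASS complexes, rose with both (0.45, limma adjusted p = 0.000514, and 0.51, limma adjusted p = 0.000294) and was at 0.20 with each after the GC adjustment (limma adjusted p = 0.0183 and 0.0215). SETD1B was called higher with both (0.24, limma adjusted p = 0.0193, and 0.33, limma adjusted p = 0.00427), and both calls and their direction were lost under that adjustment (-0.04 and -0.01). The first call was also lost without the filter on low genes (limma adjusted p = 0.0505) and without Scramble replicate 3 or Si-KDM4C#1 replicate 2 (limma adjusted p up to 0.0678). The reads of KMT2A and KMT2C may be shared in part, as 19.2% and 8.65% of their 31-base runs occur in other annotated genes.

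The H4K20 methyltransferases act one after another, KMT5A placing the first methyl group and KMT5B and KMT5C the next. KMT5B measured 3.72, 3.15 and 3.17 FPKM in Scramble, 5.54, 6.02 and 5.98 FPKM under Si-KDM4C#1 and 3.999, 3.80 and 4.28 FPKM  under Si-KDM4C#2. It rose further with the first siRNA (0.66, SE 0.0681, limma adjusted p = 1.91e-05) than with the second (0.21, SE 0.0681, limma adjusted p = 0.0230), with a difference of -0.45 (SE 0.0681, limma adjusted p = 0.000312). The call with the second siRNA was lost without the filter on low genes (limma adjusted p = 0.0522) and without Scramble replicate 2 or 3 or Si-KDM4C#2 replicate 1 or 3 (limma adjusted p up to 0.0834). KMT5A rose with both (0.21, limma adjusted p = 0.00228, or 0.10 and 0.0503 by quantile normalization, and 0.48, limma adjusted p = 1.24e-05), and 18.9% of its 31-base runs occur in other genes, SETD8P1 above all. KMT5C fell with Si-KDM4C#1 (-0.33, limma adjusted p = 0.00442) and gave -0.01 with Si-KDM4C#2 (limma adjusted p = 0.920). After the GC adjustment KMT5C was lower with both (-0.63, limma adjusted p = 6.75e-06, and -0.38, limma adjusted p = 0.000273).

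The 3 HP1 proteins, which read methylated H3K9 through a chromodomain, moved in 3 ways. CBX1 (HP1 beta) was at 45.3, 44.7 and 43.6 FPKM in Scramble, 63.1, 64.8 and 64.1 FPKM under Si-KDM4C#1 and 74.1, 76.1 and 80.3 FPKM  under Si-KDM4C#2. It rose with both siRNAs (0.51, SE 0.0370, limma adjusted p = 1.61e-06, and 0.77, SE 0.0370, limma adjusted p = 2.35e-07). CBX5 (HP1 alpha) measured 22.9, 23.3 and 23.4 FPKM in Scramble, 17.3, 17.1 and 15.0 FPKM under Si-KDM4C#1 and 11.3, 13.2 and 11.9 FPKM  under Si-KDM4C#2. It fell with both (-0.47, SE 0.0635, limma adjusted p = 0.000113, and -0.88, SE 0.0635, limma adjusted p = 2.69e-06), and the GC adjustment put the first value at -0.25 (limma adjusted p = 0.00280). CBX3 (HP1 gamma) measured 51.1, 51.6 and 52.6 FPKM in Scramble, 25.4, 27.03 and 24.0 FPKM under Si-KDM4C#1 and 65.4, 64.8 and 61.2 FPKM  under Si-KDM4C#2. It fell to 49.2% of Scramble with the first siRNA (-0.997, SE 0.0469, limma adjusted p = 1.13e-07) and rose with the second (0.30, SE 0.0469, limma adjusted p = 0.000455), and the difference between the siRNAs was 1.29 (SE 0.0469, limma adjusted p = 3.36e-08). HP1 genes have processed copies in the genome, and 8.55% of the 31-base runs of CBX1 and 7.62% of those of CBX3 occur in other genes.

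Of the partners of HP1, ATRX, a chromatin remodeller that helps to deposit histone H3.3 in heterochromatin, had the largest fall with Si-KDM4C#1. Its values were 7.99, 7.95 and 7.07 FPKM in Scramble, 2.26, 2.47 and 1.88 FPKM under Si-KDM4C#1 and 6.73, 7.51 and 7.81 FPKM  under Si-KDM4C#2. The first siRNA left 28.7% of Scramble (-1.44, SE 0.0831, limma adjusted p = 3.89e-07), the second overlapped Scramble (-0.06, SE 0.0831, limma adjusted p = 0.589), and they differed by 1.38 (SE 0.0831, limma adjusted p = 6.60e-07). TRIM28 (KAP1), the corepressor that brings SETDB1 and HP1 to its targets, was the most abundant gene of the list, at 123 to 138 FPKM in Scramble, 184 to 190 FPKM with Si-KDM4C#1 and 160 to 174 FPKM with Si-KDM4C#2. It rose with both siRNAs (0.54, SE 0.0493, limma adjusted p = 8.13e-06, and 0.36, SE 0.0493, limma adjusted p = 0.000171), with 0.32 (limma adjusted p = 1.65e-05) and 0.09 (limma adjusted p = 0.0334) after the GC adjustment.

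Summed FPKM over a role gives the amount of its transcripts relative to the library, and no test was made of these sums. The KDM4 family as a whole summed to 15.9 ± 0.956 FPKM (SD, n = 3) in Scramble, 12.1 ± 0.973 FPKM under Si-KDM4C#1 and 6.21 ± 0.207 FPKM  under Si-KDM4C#2, or 76.3% and 39.0%. KDM4C, the target of both siRNAs, is part of this sum, with means of 4.69, 1.14 and 0.287 FPKM, and no sum was made without KDM4C. The H3K9 methyltransferases summed to 36.7 ± 1.05 FPKM, 44.8 ± 1.33 FPKM and 51.8 ± 1.38 FPKM in the same order, and the libraries of the 3 groups did not overlap. The flavin-dependent demethylases, most of whose sum is KDM1A, were at 105 ± 3.20 FPKM, 68.0 ± 3.06 FPKM and 83.6 ± 0.708 FPKM. The PRC2 subunits were at 82.1% of Scramble under Si-KDM4C#1 and 122% under Si-KDM4C#2, and the H3K36 methyltransferases at 83.2% and 112%. These percentages depend on the scaling. With each library rescaled by its median ratio over genes, the H3K9 methyltransferases were at 124% and 134% of Scramble in that order. The PRC2 subunits were then at 83.3% and 115%, the H3K36 methyltransferases at 84.5% and 107%, and the KDM4 family at 77.5% and 37.0%.

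**Figure D4:**
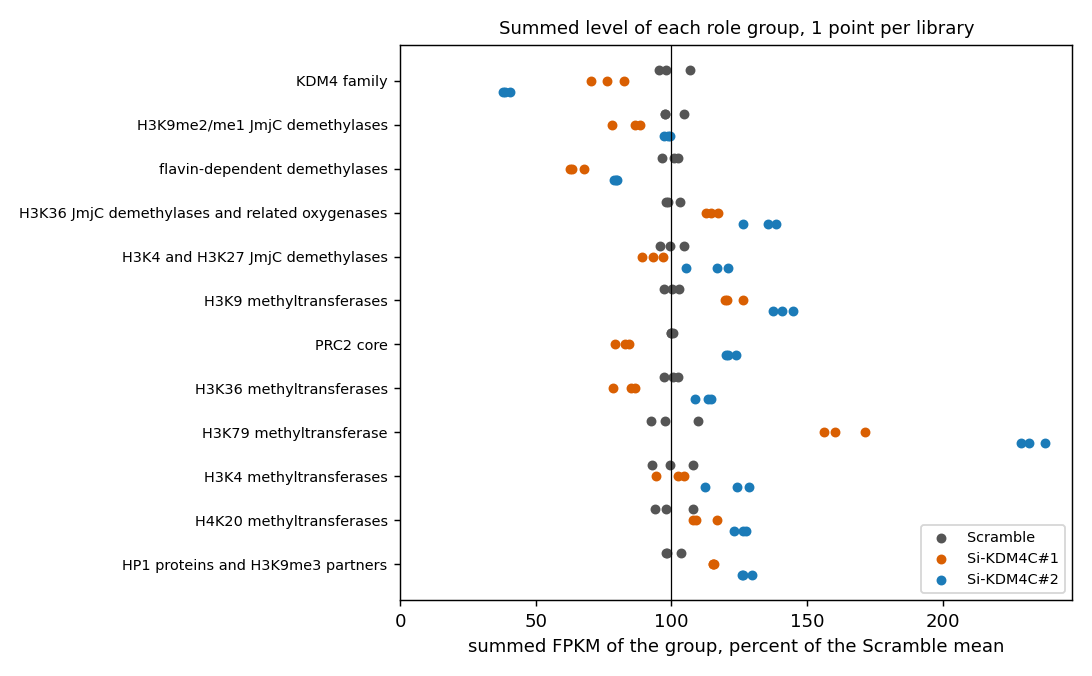
Summed FPKM of each role group as a percent of the Scramble mean, with 1 point per library of Scramble (grey), Si-KDM4C#1 (orange) and Si-KDM4C#2 (blue); the line marks 100 percent. With Si-KDM4C#1 the flavin-dependent demethylases are lowest, at 64.6%, and with Si-KDM4C#2 the KDM4 family is, at 39.0%, while the H3K79 methyltransferase DOT1L is highest with both, at 163% and 233%. The KDM4 family sum includes KDM4C, the target of both siRNAs.

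The GC content of a transcript went with its measured change over all genes, and so it did over these. Pearson's r between the log2 fold change and GC content was 0.45 under Si-KDM4C#1 and 0.26  under Si-KDM4C#2 over the 48 genes, and 0.33 and 0.31 over 14343 genes. These are correlations across genes that share the same libraries, given as a description. After each library was adjusted for GC content, 29 of the 34 calls with Si-KDM4C#1 were kept in their direction, 5 were lost (JMJD1C, KDM6B, KMT2A, SETD1B and SUV39H1) and 8 genes gained one (EED, KDM4B, KDM5B, KMT2B, KMT2D, NSD3, PHF2 and SETDB2). With Si-KDM4C#2, 29 of 31 calls were kept, 2 were lost (KMT2B and SETD1B) and 6 were gained (JMJD1C, KDM4A, KDM5A, KMT5C, RIOX2 and SUZ12). The falls of KDM4C and KDM4B, and those of ATRX, SETD2 and SUZ12 with Si-KDM4C#1, were kept (ATRX -1.12, SETD2 -1.15, SUZ12 -0.89 after the adjustment), with SUZ12 then under 2-fold. Whether GC content has a part in the other changes was not tested beyond this adjustment.

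**Figure D5:**
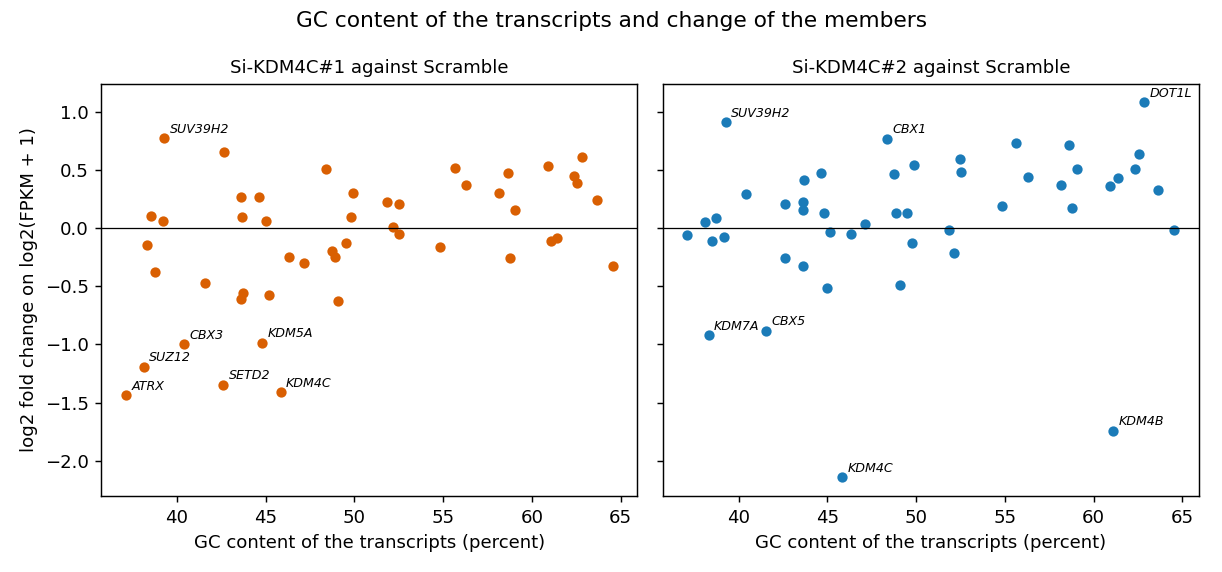
Log2 fold change on log2(FPKM + 1) against the GC content of the annotated transcripts (percent) for the 48 tested genes, in 1 panel per siRNA. KDM4C, KDM4B, ATRX, SETD2 and SUZ12 lie at the bottom of the panels in which they fell more than 2-fold, and DOT1L, with 62.8% GC, lies at the top right for Si-KDM4C#2.

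Further genes of the same pathways were looked up from a list of related demethylases, methyltransferases, complex partners and readers, of which 68 were listed and 66 tested. With Si-KDM4C#1, 25 of the 66 were higher and 25 lower (31.7% and 33.9% of all genes), and with Si-KDM4C#2, 38 were higher and 7 lower (34.4% and 25.0% of all genes), beside a median log2 fold change of -0.03 and 0.21. HDAC1, a deacetylase of the CoREST and NuRD complexes, rose more than 2-fold with both, from 21.5, 21.5 and 21.0 FPKM to 45.1, 48.4 and 48.0 FPKM and 49.2, 49.4 and 46.8 FPKM (1.11, SE 0.0390, limma adjusted p = 2.35e-08, and 1.15, SE 0.0390, limma adjusted p = 4.65e-08). Its paralog HDAC2 fell with Si-KDM4C#1, from 12.2, 13.9 and 12.8 FPKM to 6.13, 5.44 and 5.41 FPKM (-1.07, SE 0.0584, limma adjusted p = 2.79e-07), and measured 14.2, 14.2 and 14.0 FPKM with Si-KDM4C#2 (0.11, limma adjusted p = 0.120). SETD7, a lysine methyltransferase, rose from 3.10, 3.29 and 3.26 FPKM to 5.81, 5.73 and 5.63 FPKM and 11.002, 11.8 and 11.3 FPKM (0.67, limma adjusted p = 1.09e-06, and 1.55, limma adjusted p = 2.85e-08), the largest rise with Si-KDM4C#2 on that list. DPY30, a core subunit of the H3K4 methyltransferase complexes, was the one gene of that list more than 2-fold lower with Si-KDM4C#2 (-1.23, SE 0.0671, limma adjusted p = 4.99e-07), from 12.5, 14.0 and 13.2 FPKM to 4.94, 4.78 and 5.49 FPKM, and gave -0.50 with Si-KDM4C#1 (limma adjusted p = 0.000107). ZMYND11, a reader of trimethyl H3K36 on H3.3, fell with Si-KDM4C#1 to 3.35, 3.45 and 3.30 FPKM from 9.55, 9.31 and 9.98 FPKM (-1.28, SE 0.0454, limma adjusted p = 2.46e-08) and gave 0.04 with Si-KDM4C#2 (limma adjusted p = 0.426). The Polycomb chromodomain protein CBX2 (1.07 and 1.23) and the acetyltransferase scaffold BRPF1 (1.01 and 1.02) were also more than 2-fold higher with both siRNAs, and UHRF1, NTMT1, CBX6 and SMYD5 with Si-KDM4C#1 (1.15, 1.16, 1.14 and 1.04).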

How the data were processed

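RNA was extracted with Trizol, libraries were made with the NEB Next Ultra kit and sequenced paired-end, and the authors deposited an FPKM list for each library, with no counts. The submitters' processing notes name FastQC 0.11.5, HISAT2 2.1.0, StringTie 1.3.3b, featureCounts, DESeq 1.28.0 and GRCh38; the annotation is not given in the sources used here. FPKM was tested as log2(FPKM + 1) with limma 3.58.1 (limma-trend, R 4.3.3), all 9 libraries in 1 fit, for the 14363 genes whose mean reached 1 FPKM in any group. Adjustment was by Benjamini-Hochberg over all of them. Calls used an adjusted p under 0.05, alone or with a fold change over 2. KDM4D and KDM8 come from a fit over all 32906 genes. Exon lengths, GC content and sequences came from GENCODE release 29. Multiplied by exon length and a fitted total, 97.5% of genes gave whole fragments (within 0.05) in all libraries, including 46 of the 50. Intervals and floors from fragments cover counting error only. The members and lists were chosen with earlier results of these data known. Named with full values were the KDM4 family and genes with an adjusted p under 0.05 and a fold change over 1.5 with either siRNA. Also named were the largest change and the uncalled genes of each role and, of the further genes, those over 2-fold. Some of these have fold changes or p-values only. The method was tested on simulated data in which few genes changed and the spread was fixed. That setting is simpler than these data, so it does not bear on the calls made here.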

Additional observations from a re-analysis of the deposited data

Results flagged for a closer look

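For 6 genes the siRNAs differed more than 2-fold on the log2(FPKM + 1) scale in the direct limma comparison of Si-KDM4C#2 with Si-KDM4C#1. None of the 6 had overlapping siRNA groups. KDM4B was lower with Si-KDM4C#2 (log2 difference -1.63). CBX3 (1.29), ATRX (1.38), SUZ12 (1.25), KDM5A (1.12) and SETD2 (1.10) were higher with Si-KDM4C#2, each having fallen with Si-KDM4C#1. Each siRNA is a single sequence, so the siRNA and the depth of KDM4C loss cannot be told apart in these comparisons.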

How the results depend on the processing

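Fits without 1 library each gave 16 to 18 genes higher and 17 or 18 lower with Si-KDM4C#1, 21 to 25 higher and 9 lower with Si-KDM4C#2, and 26 to 30 higher and 10 or 11 lower between the siRNAs. The 4 genes over 2-fold lower with Si-KDM4C#1 became 4 to 6.

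Counts of genes over 2-fold moved with the processing. With a pseudocount of 0.1, KDM5A and CBX3 were also over 2-fold lower with Si-KDM4C#1, and KDM7A with Si-KDM4C#2. The moves that were larger relative to the main count were as follows, and smaller ones are not all listed. With the GC adjustment, with and without a replicate block, 1 gene was higher with Si-KDM4C#1 in place of 0. With a pseudocount of 0.1 or limma voom, 3 genes in place of 1 were higher with Si-KDM4C#2 and 3 in place of 1 lower with Si-KDM4C#2 than with Si-KDM4C#1. With at least 1 FPKM in every library, 1 in place of 2 was lower with Si-KDM4C#2, as KDM4C is then not tested. With quantile normalization, 3 in place of 5 were higher with Si-KDM4C#2 than with Si-KDM4C#1. The cause of the others was not tested. KDM4B with Si-KDM4C#1 was called at -0.33 under the GC adjustment, with and without the block, and SETD1B turned to -0.039 for Si-KDM4C#1 and -0.013 for Si-KDM4C#2 in both.

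The replicate numbers are shared between groups, but same-numbered libraries did not deviate together (mean correlation 0.016 over 9 pairs, against -0.008 over 18 others). With the number as a block, the higher and lower genes numbered 18 and 18 for Si-KDM4C#1, 22 and 9 for Si-KDM4C#2, and 28 and 10 between the siRNAs. For single genes and comparisons, 1225 of 1326 other alternative values kept their direction and side of the threshold, 34 lost and 63 gained a call, and 4 reversed. FPKM near the floor of 3 fragments limits KDM4D and KDM8.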
